A study of Bos taurus with 16 samples.

Results

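The DQ genes encode class II proteins of the bovine major histocompatibility complex (BoLA), and they were followed probe by probe on 16 single-colour Agilent arrays of cow blood RNA. The members were the 15 probes whose symbol in the authors' table starts with BOLA-DQ: 6 for BOLA-DQA1, 2 for BOLA-DQA2, 2 for BOLA-DQA3, 2 for BOLA-DQA5 and 3 for BOLA-DQB. BOLA-DQB1 is filed on this array under the older name BLA-DQB, and its 3 probes were added. This gave 6 genes of the 17026 named on the array, with 18 of its 43653 probes. BOLA-DQB1 was matched by RefSeq accession for 2 probes and by an older symbol for 1. BOLA-DQA5 had been picked from these data for being bright on the probiotic and LPS arrays and dim on the untreated and day 0 arrays. Its levels there are therefore a description, and no test of that pattern is given. Of the 18 probes, 10 were well above background on all 4 arrays of at least 1 group, by the scanner software's own call, and only these were tested.

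The blood came from lactating Holstein Friesian cows, 10 in all and 5 in each arm. The LPS group was blood of the probiotic-fed cows at day 60 to which lipopolysaccharide, a bacterial cell wall component, had been added at 100 ng/ml. The probiotic group was blood of the same cows at day 60 of an oral supplement of yeast culture with Enterococcus, Lactobacillus, Aspergillus and Bacillus products, the untreated group was blood at day 60 of cows that had received water, and the day 0 group was blood drawn before the supplement. RNA was taken after the blood had stood at 37 °C in 5% CO2 for 30 min. The labels name the day 0 pool after the probiotic arm and do not settle whether cows of the other arm are in it. Cow RNA was combined into 1 pool per group, which was then hybridised 4 times, and p-values cover the spread between those repeats, not between cows. Slide and group cannot be told apart, since every slide held a single group. Only LPS and probiotic arrays were scanned on the same day.

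A class II molecule is a pair of an alpha and a beta chain that carries peptides taken from outside the cell to the surface of antigen-presenting cells, where CD4 T cells read them. DQA genes encode alpha chains and DQB genes encode beta chains. In cattle the DQ genes vary greatly between animals, and many animals carry duplicated DQ genes, so a short probe matches some alleles better than others. In blood, class II genes are known from B cells and monocytes.

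Because several probes of different DQ genes lie on the same stretch of the gene, their sequences are shown in pairs, 5′ to 3′, with the bases at which the pair differs in capitals. The BOLA-DQB and BOLA-DQB1 probes cover the same stretch over 41 bases and match at 37 of them.
BOLA-DQB, probe A_73_P052096: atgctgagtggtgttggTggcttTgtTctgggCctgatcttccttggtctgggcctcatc
BOLA-DQB1, probe A_73_P031816: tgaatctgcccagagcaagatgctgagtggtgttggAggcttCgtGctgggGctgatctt

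A BOLA-DQA1 and a BOLA-DQA2 probe share 46 bases and match at 41. A further probe of a neighbouring locus, described further on, overlaps both of them.
BOLA-DQA1, probe A_73_P245636: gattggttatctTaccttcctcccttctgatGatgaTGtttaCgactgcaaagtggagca
BOLA-DQA2, probe A_73_P039756: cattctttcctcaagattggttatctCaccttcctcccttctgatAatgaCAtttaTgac

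A pair of BOLA-DQA1 probes carries the same stretch in different versions and matches at 30 of 33 shared bases.
BOLA-DQA1, probe A_73_P052576: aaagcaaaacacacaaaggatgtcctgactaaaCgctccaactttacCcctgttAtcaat
BOLA-DQA1, probe A_73_P235072: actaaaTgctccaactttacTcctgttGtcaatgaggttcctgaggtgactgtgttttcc

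A BOLA-DQA1 and a BOLA-DQA3 probe match at 29 of 36 shared bases.
BOLA-DQA1, probe A_73_111307: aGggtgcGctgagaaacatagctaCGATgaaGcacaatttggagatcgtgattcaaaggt
BOLA-DQA3, probe A_73_118124: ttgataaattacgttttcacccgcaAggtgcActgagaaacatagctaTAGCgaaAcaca

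Another such pair matches at 49 of 51 shared bases, and the 30 bases around the 2 differences are shown. The last line gives 30 bases of the bright BOLA-DQA5 probe, with the letters AATAAA in capitals.
BOLA-DQA1, probe A_73_P036601: accctgatTccatgtcaccacAgaagcaat
BOLA-DQA3, probe A_73_P245461: accctgatCccatgtcaccacGgaagcaat
BOLA-DQA5, probe A_73_P062199: atctatggaagcAATAAAtctctttatgtg

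AATAAA, the usual poly(A) signal of messenger RNA, was searched on both strands. It was found in 4 of the 18 DQ probes (22.2%) and in 12.45% of all probes, a description only. The longest run of bases that the bright BOLA-DQA5 probe shared with any probe not annotated as DQ was 14 of its 60. The other DQ probes were left out of that search. All sequences are those of the authors' own probe table. The bovine RefSeq table used for names (assembly ARS-UCD2.0) places BOLA-DQA2, BOLA-DQB, BOLA-DQA5 and BOLA-DQB1 next to each other in that order on chromosome 23. The array was designed on another assembly, so no positions are given.

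The arrays differed in brightness, which bears on every comparison of the DQ probes. Probes well above background made up 34.4 ± 8.53% (SD, n = 4) on LPS and 32.9 ± 4.70% on probiotic arrays, against 15.2 ± 3.06% on untreated and 17.9 ± 6.59% on day 0 arrays. Replicate 4 was the dimmest array of the LPS group (22.5%) and of the day 0 group (8.26%). No spot was saturated. Levels are given as net signal in scanner units, which is the spot after background subtraction, with its percentile among all probes of its array. Changes are log2 differences after each array was scaled to its own 75th percentile, with the standard error of the fit. That percentile was at most 48.9 units on untreated arrays, where the lowest well-above-background signal was at least 78.3 units. On day 0 arrays it was at most 25.3 against at least 31.5, and on LPS replicate 4 it was 34.1 against 38.7. On probiotic arrays it was at least 53.1 against at most 50.6, and LPS replicates 1 to 3 were likewise above. Changes from untreated or day 0 arrays thus rest on a scaling value below that limit. The small number of arrays sets the precision.

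BOLA-DQA5, a DQ alpha chain gene, was read by 2 probes that did not behave alike. Probe A_73_P062199 had net signals of 10713, 9917, 9812 and 1600 on the LPS arrays, and of 14756, 14221, 13528 and 13412 on the probiotic arrays. It had -22, -21, -22 and -29 on the untreated arrays, and 3, 5, 5 and 6 on the day 0 arrays. All 8 LPS and probiotic arrays were well above background, none of the 8 others was, and the groups on either side of that divide were far apart. The signal stood between the 98.52 and 98.95 percentile of the LPS arrays and between the 98.95 and 99.3 percentile of the probiotic arrays, against 7.01 to 17.33 on untreated and 41.76 to 62.39 on day 0 arrays. The dimmest of the bright arrays, LPS replicate 4 at 1600 units, had its lowest well-above-background signal at 38.7 units. The brightest of the dim arrays, day 0 replicate 4 at 5.6 units, had that limit at 38.4 units.

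Where a probe was dim on all arrays of a group, only a bound on the fold can be given. It sets the mean of the bright group against the mean, over the dim arrays, of the probe's own signal or the lowest well-above-background signal, whichever was higher. Every such bound holds on the 75th percentile scale only. It covers the detection limit and not the choice of scaling, and other scalings can give less. On the 75th percentile scale, the probe A_73_P062199 of BOLA-DQA5 was at least 61.2-fold higher on probiotic than on untreated arrays and at least 70.8-fold higher than on day 0 arrays. These contrasts chose the gene, so they carry no p. Over the alternative scalings and fits the fitted log2 difference, which rests on the floor of the dim arrays, lay between 3.89 and 10.2 from untreated and between 5.85 and 13.9 from day 0. The authors' deposited table, which holds 1 value per group, gave -0.16 and 5.49 for the same differences.

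The other BOLA-DQA5 probe, A_73_P031561, was not well above background on any of the 16 arrays. Its net signals ran from -4 to 13 on LPS, from -3 to 3 on probiotic, from -43 to -13 on untreated and from -10 to -3 on day 0 arrays. The bright BOLA-DQA5 signal therefore rests on 1 spot per array, from 1 of 2 probes for the same transcript record.

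**Figure D1:**
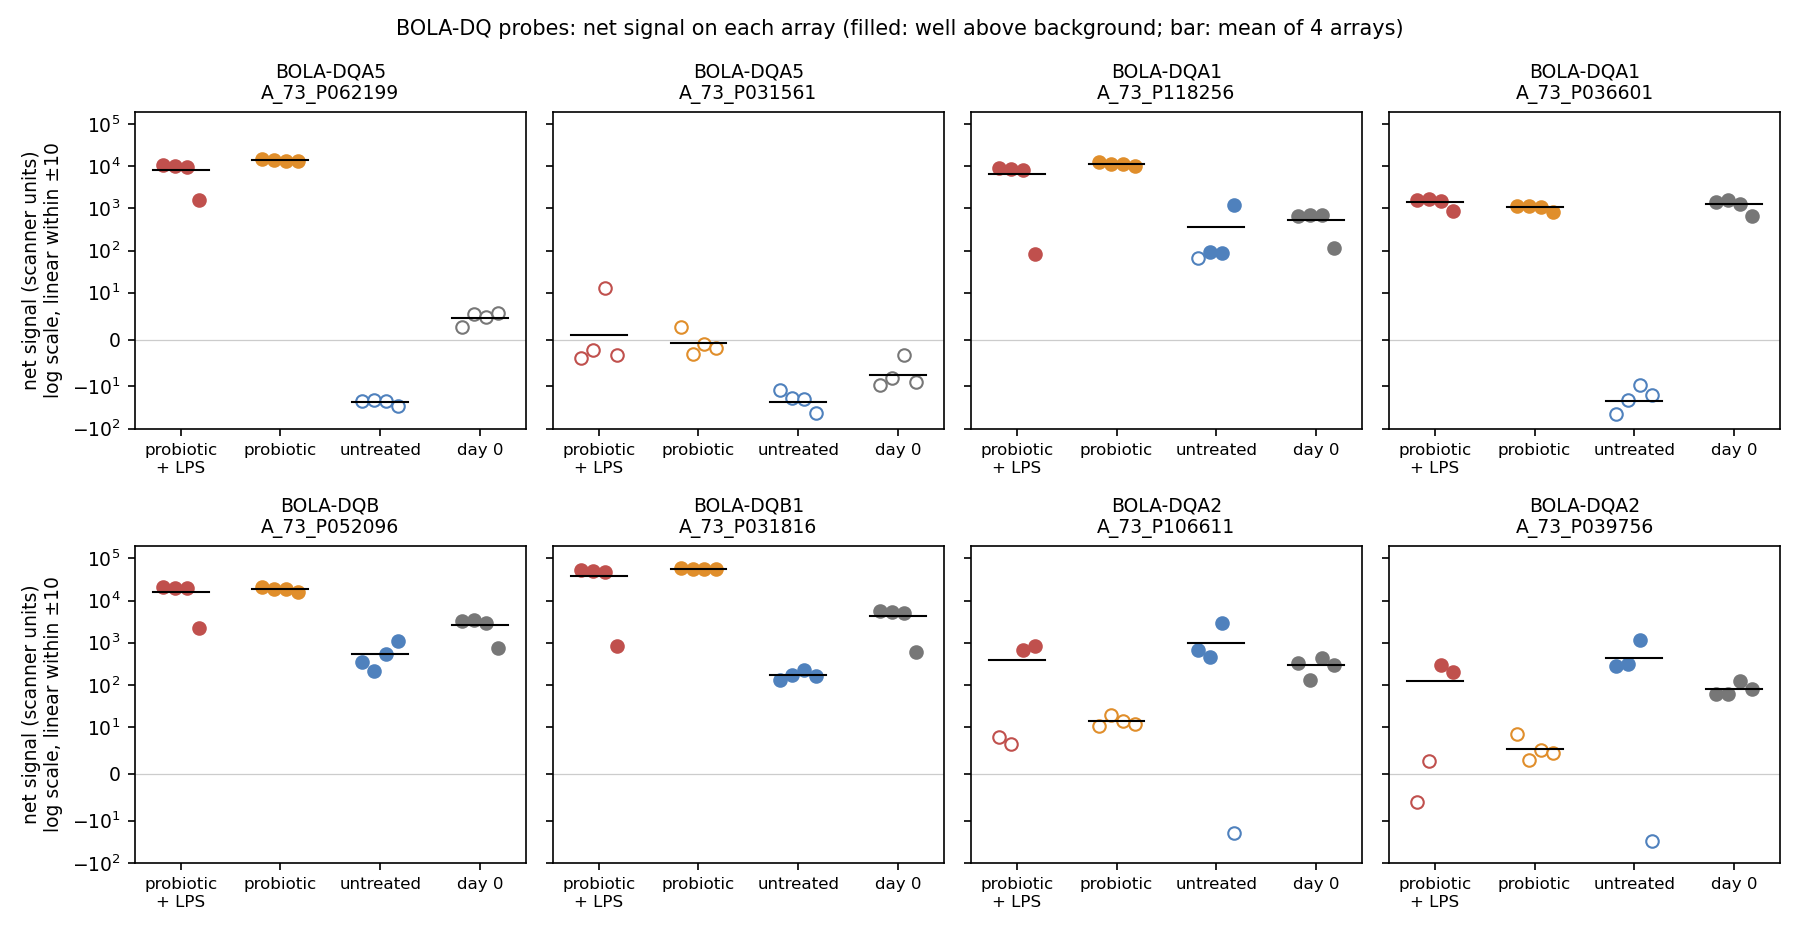
Net signal of 8 DQ probes on each of the 16 arrays, in scanner units on a scale that is logarithmic outside ±10; each point is 1 array, filled points are well above background, and the bar is the mean of the 4 arrays. The probe A_73_P062199 of BOLA-DQA5 is at 1600 or more on all LPS and probiotic arrays and at 6 or less on all untreated and day 0 arrays.

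How often this on-off pattern occurs was counted over the whole array. Of 43653 probes, 1378 (3.16%) were bright by the software's call on every probiotic array and dim on every untreated and day 0 array. Of these, 246 (0.564% of all probes) were also bright on every LPS array, as the BOLA-DQA5 probe was. Probes bright on all LPS and probiotic arrays numbered 5348, and the 246 are 4.6% of them.

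BOLA-DQA1, a DQ alpha chain gene, had 6 probes, of which 5 were tested and 1 stayed dim. Probe A_73_P118256 had 8939, 8873, 8220 and 83 units on LPS arrays, and 12660, 11551, 11321 and 10336 on probiotic arrays. It had 66, 94, 90 and 1193 units on untreated arrays, and 669, 693, 684 and 117 on day 0 arrays. The probiotic arrays were above all untreated and day 0 arrays, while LPS replicate 4 fell among the untreated ones.

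Probe A_73_P036601 of BOLA-DQA1 gave another order. It had 1575, 1659, 1526 and 878 units on LPS, and 1169, 1152, 1100 and 835 on probiotic arrays. It had -44, -21, -10 and -16 units on untreated arrays, and 1453, 1630, 1279 and 652 on day 0 arrays. It was dim on every untreated array alone, and the net signals of the other 3 groups overlapped.

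Probe A_73_111307 of BOLA-DQA1 had 1787, 2286, 2071 and 10 units on LPS and 1831, 1326, 1623 and 352 on probiotic arrays. It had 33, -9, 22 and -31 units on untreated arrays and 100, 70, 76 and 1 on day 0 arrays. The probiotic arrays lay above all untreated and day 0 arrays, while LPS replicate 4 did not.

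Probe A_73_P052576 of BOLA-DQA1 had 2156, 2373, 1626 and 50 units on LPS arrays. On probiotic arrays it had 1409, 1518 and 787, and replicate 2 was left out as an outlier spot. It had 107, 1093, 23 and -45 units on untreated arrays, and 586, 619, 587 and 24 on day 0 arrays. By net signal the probiotic arrays lay above all day 0 arrays, while the scaled values of these groups overlapped. Untreated replicate 2, LPS replicate 4 and day 0 replicate 4 lay apart from the rest of their groups.

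Probe A_73_P245636 of BOLA-DQA1, which overlaps a BOLA-DQA2 probe, was low throughout. It had 240, 145, 169 and 57 units on LPS and 261, 104, 125 and 58 on probiotic arrays. It had 115, 226, 272 and 225 units on untreated arrays and 8, 11, 8 and 13 on day 0 arrays. The net signals of the LPS, probiotic and untreated arrays overlapped, and the day 0 arrays were dim. The last BOLA-DQA1 probe, A_73_P235072, ran from -50 to 46 units over all arrays and was well above background on LPS replicate 4 and day 0 replicate 1 only.

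BOLA-DQA2, another alpha chain gene, was dim on every probiotic array. Probe A_73_P106611 had 8, 6, 659 and 842 units on LPS and 10, 19, 14 and 12 on probiotic arrays. It had 678, 447, 2897 and -20 units on untreated arrays and 321, 132, 428 and 303 on day 0 arrays. No probiotic array was well above background, all day 0 arrays were, and the LPS and untreated groups were mixed.

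The other BOLA-DQA2 probe, A_73_P039756, had the same arrays bright and dim. It had -6, 3, 300 and 205 units on LPS, 9, 3, 5 and 4 on probiotic, 273, 313, 1183 and -30 on untreated, and 59, 62, 122 and 82 on day 0 arrays. The scaled log2 values of the 2 BOLA-DQA2 probes had a Pearson correlation of 0.99 over the 16 arrays, which share a scale and a slide layout.

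BOLA-DQA3, an alpha chain gene, was near background. Probe A_73_118124 was well above background on LPS replicate 1 alone, at 104 units, and lay between -70 and 13 elsewhere. Probe A_73_P245461 was well above background on LPS replicates 1, 3 and 4, at 41, 790 and 128 units, and on probiotic replicate 1, at 48 units. Neither was tested.

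BOLA-DQB, a DQ beta chain gene, was above background on all 16 arrays by 1 of its 3 probes. Probe A_73_P052096 had 20676, 19709, 19867 and 2284 units on LPS and 20937, 18959, 18859 and 15771 on probiotic arrays. It had 344, 213, 548 and 1098 units on untreated arrays and 3285, 3432, 2979 and 740 on day 0 arrays. By net signal the probiotic arrays were above all untreated and day 0 arrays, and LPS replicate 4 lay within the day 0 range. The scaled values of the probiotic and day 0 arrays overlapped. Probe A_73_P336561 had 146, 579, 1521 and 14 units on LPS and 241, 2272, 2800 and -2 on probiotic arrays, and was dim on all untreated and day 0 arrays, at -4 to 15 units. Probe A_73_105688 was dim on all 16 arrays.

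BOLA-DQB1, the other beta chain gene, was likewise above background on all 16 arrays by 1 of its 3 probes. Probe A_73_P031816 had 52584, 49644, 47304 and 815 units on LPS and 60635, 57320, 56846 and 55287 on probiotic arrays. It had 133, 174, 230 and 164 units on untreated arrays and 5754, 5448, 5194 and 615 on day 0 arrays. It was well above background everywhere, with the untreated arrays lowest and replicate 4 low in both the LPS and the day 0 group. Probe A_73_P109256 had 5, 1103, 2043 and 376 units on LPS, 18, 20, 16 and 16 on probiotic, 94, 4510, 52 and -21 on untreated, and 940, 113, 144 and 37 on day 0 arrays. Probe A_73_P362616 was well above background on untreated replicate 2 alone, at 7093 units.

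**Figure D2:**
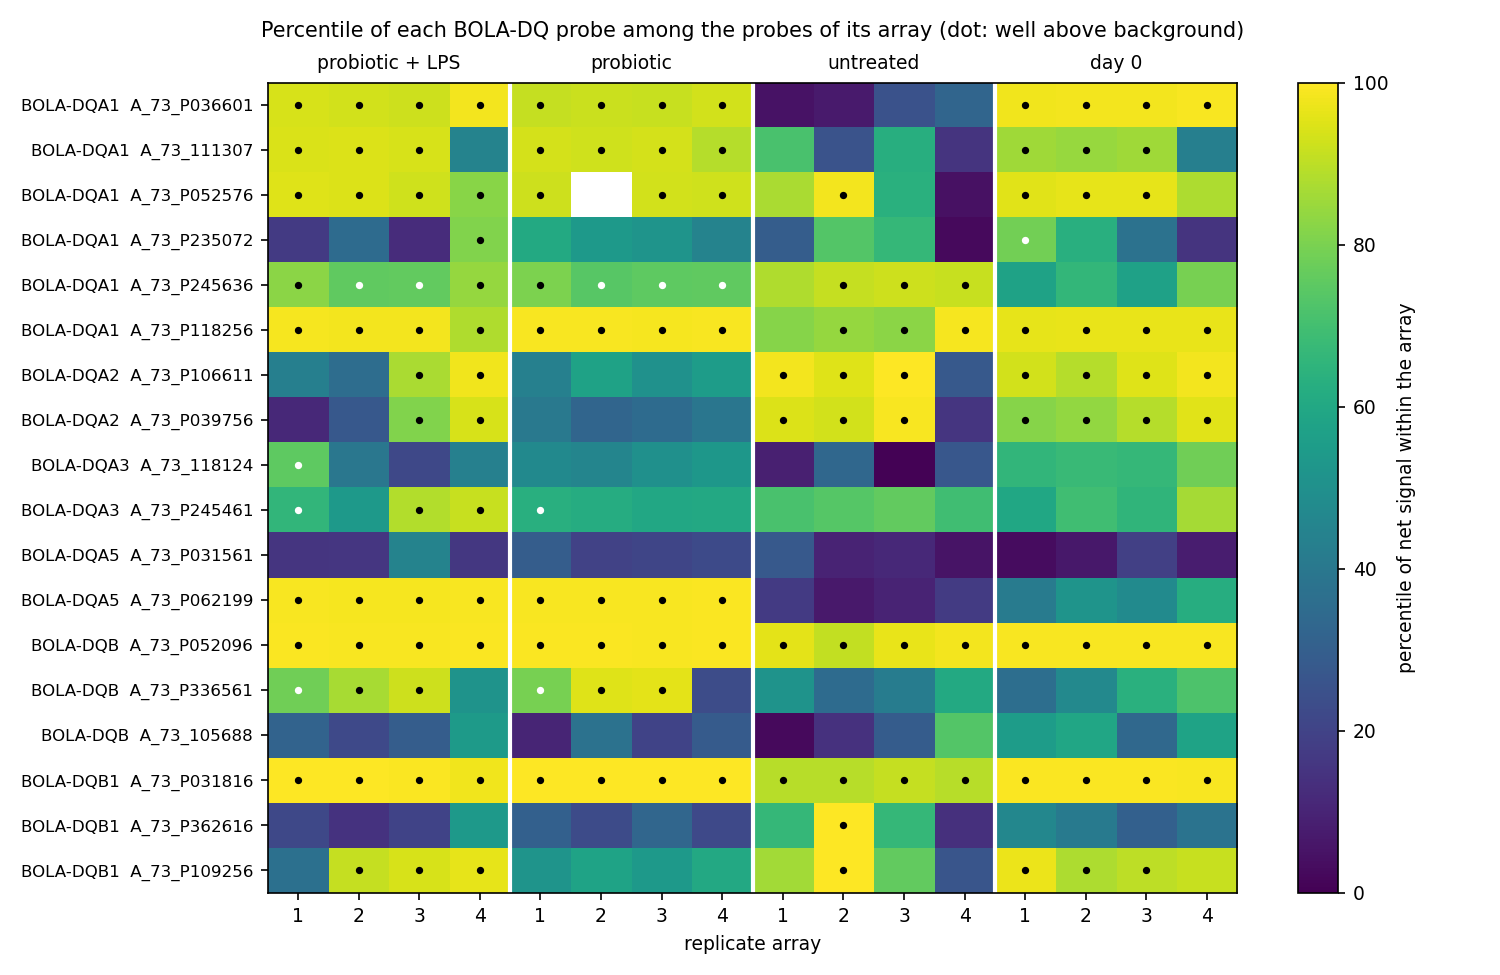
Percentile of the net signal of each of the 18 DQ probes among all probes of its array, on a colour scale running between 0 (dark) and 100 (light), with a dot where the probe was well above background and a blank cell for the outlier spot left out. The 2 BOLA-DQA5 probes share no bright array, and the 2 BOLA-DQA2 probes are bright on the same 9 arrays.

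Probiotic against untreated arrays at day 60 asks how blood RNA differed with the supplement. Calls are given for the tested probes other than BOLA-DQA5, and not where a probe came into the fit only by being bright on all arrays of a compared group. Of the 8 such probes here, 4 rose, 3 fell and 1 did not pass, with passing set at 2-fold or more and a limma adjusted p below 0.05. Of all 12216 tested probes, 67.4% passed in this comparison, 50% as higher and 17.5% as lower, and their median change was 1.57 on the log2 scale. With cyclic loess scaling 0 of the 8 rose, and over all probes 1187 passed as higher and 4532 as lower.

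The beta chain probes rose, BOLA-DQB1 by 7.19 ± 0.79 (A_73_P031816, adjusted p = 1.71e-06) and BOLA-DQB by 4.14 ± 0.52 (A_73_P052096, adjusted p = 7.09e-06). With cyclic loess scaling BOLA-DQB turned to -2.05 and BOLA-DQB1 came to 0.87, past no threshold. Of the BOLA-DQA1 probes, A_73_P118256 rose by 4.96 ± 1.03 (adjusted p = 7.41e-04), and cyclic loess turned it to -0.53. Probe A_73_P036601 was at least 4.62-fold higher (fitted change 4.52 ± 0.40, adjusted p = 1.82e-07), and the same scaling gave -0.12. Probe A_73_111307 was bright on all arrays of the probiotic group only, so no call is made. It was at least 4.76-fold higher (fitted change 4.35 ± 1.01), and cyclic loess left 1.01.

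Probe A_73_P052576 of BOLA-DQA1 differed by 2.57 ± 1.31 (adjusted p = 0.0926), with 3 probiotic arrays in the fit; without untreated replicate 2 the difference was 3.79 (adjusted p = 0.00974). Probe A_73_P245636 of BOLA-DQA1 went the other way, with a fall of -1.95 ± 0.48 (adjusted p = 0.00253). The net signals of this probe overlapped between the groups, the scaled values did not. The difference was -0.05 when arrays were scaled to their median, and it was 0.91 when each array row was centred. Both BOLA-DQA2 probes fell, with fitted changes of -6.04 ± 1.66 (A_73_P106611, adjusted p = 0.00491) and -5.82 ± 1.32 (A_73_P039756, adjusted p = 0.00141). Untreated replicate 4 was dim for both, at -20 and -30 units, and entered the untreated mean at its array floor. No bound on the fold is therefore given for these probes here. The BOLA-DQA2 fall of A_73_P106611 was -3.62 with centred rows (adjusted p = 0.0529).

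Probiotic against day 0 arrays asks how the blood of supplemented cows changed over the 60 days. Of the 6 probes with a call, 0 rose, 1 fell and 5 did not pass, where 8.01% of all tested probes passed, 3.5% as higher and 4.51% as lower. The median change over all tested probes was 0.40. Both BOLA-DQA2 probes were bright on all arrays of the day 0 group only, so no call is made for them. A_73_P106611 was at least 34.3-fold lower (fitted change -6.86 ± 1.66) and A_73_P039756 at least 9.80-fold lower (fitted change -5.61 ± 1.32).

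The 1 that fell was BOLA-DQA1 by probe A_73_P036601, at -2.69 ± 0.40 (adjusted p = 0.00137). The net signals of that probe overlapped between the groups, so the fall is one of its place relative to the 75th percentile, which was 53.1 units or more on probiotic and 25.3 units or less on day 0 arrays. Scaled to the median, it no longer passed (adjusted p = 0.0793), and the scanner software's detrended signal gave 4.16. The beta chain probes did not pass, with BOLA-DQB at 0.53 ± 0.52 (95% interval -0.58 to 1.64) and BOLA-DQB1 at 1.66 ± 0.79 (-0.02 to 3.34). BOLA-DQA1 probe A_73_P118256 did not pass either, at 2.18 ± 1.03 (-0.01 to 4.37). Scaling to the median gave 2.23, 3.36 and 3.88 for these 3, with adjusted p of 0.0270, 0.0264 and 0.0255.

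LPS against probiotic arrays asks what the endotoxin did to blood of the same cows. Of the 7 DQ probes with a call, 0 passed in limma, where 1.7% of all tested probes did, 1.41% as higher and 0.295% as lower. BOLA-DQA5 was chosen for being bright in both groups, so its difference of -0.97 ± 0.46 is a description. The median over all tested probes was -0.52. BOLA-DQB differed by -0.51 ± 0.52 (-1.61 to 0.60), BOLA-DQB1 by -1.53 ± 0.79 (-3.21 to 0.15) and BOLA-DQA1 probe A_73_P118256 by -1.92 ± 1.03 (-4.11 to 0.28). The 2 BOLA-DQA2 probes differed by 2.65 ± 1.66 (-0.86 to 6.16) and 2.41 ± 1.32 (-0.39 to 5.21), being bright on 2 LPS arrays and on no probiotic array. The intervals span several-fold differences, so a change of that size was not detectable with these arrays. Without LPS replicate 4 again none passed, and BOLA-DQB1 was at -0.52.

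Untreated against day 0 arrays compares the water-fed cows at day 60 with the pool drawn at the start. Of the 7 probes with a call, 1 rose, 4 fell and 2 did not pass, where 55.9% of all tested probes passed, 14.2% as higher and 41.8% as lower. Both beta chain probes fell, BOLA-DQB1 with a change of -5.53 ± 0.79 (A_73_P031816, adjusted p = 3.16e-05) and BOLA-DQB with -3.61 ± 0.52 (A_73_P052096, adjusted p = 3.39e-05). With cyclic loess BOLA-DQB1 was 0.44 and BOLA-DQB 2.19, and with the detrended signal they were -0.00 and 1.38. BOLA-DQA1 probe A_73_P036601 was at least 29.9-fold lower (fitted change -7.22 ± 0.40, adjusted p = 2.86e-09), and with the detrended signal it came to -0.37.

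BOLA-DQA1 probe A_73_P118256 was called lower at -2.78 ± 1.03 (adjusted p = 0.0313), but the call was lost on leaving out untreated replicate 1, 2 or 3 or day 0 replicate 1, 2 or 3 (adjusted p from 0.0621 to 0.0885). With the detrended signal and with cyclic loess it was 2.26 and 2.16. Probe A_73_P245636 of BOLA-DQA1 was at least 2.32-fold higher (fitted change 3.04 ± 0.48, adjusted p = 8.48e-05). Probes A_73_111307 and A_73_P052576 of BOLA-DQA1 did not pass, at -2.28 ± 1.01 and -2.88 ± 1.21 (adjusted p = 0.0669 and 0.0548), and both passed without day 0 replicate 4, at -2.85 and -3.77. Probe A_73_P052576 also passed without untreated replicate 2, at -4.10. The BOLA-DQA2 probes, for which no call is made, differed by -0.82 ± 1.66 and 0.21 ± 1.32. BOLA-DQA5 was dim in both groups, so no fold is given. Since the comparisons share control arrays, their values are given side by side and not as support for each other.

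**Figure D3:**
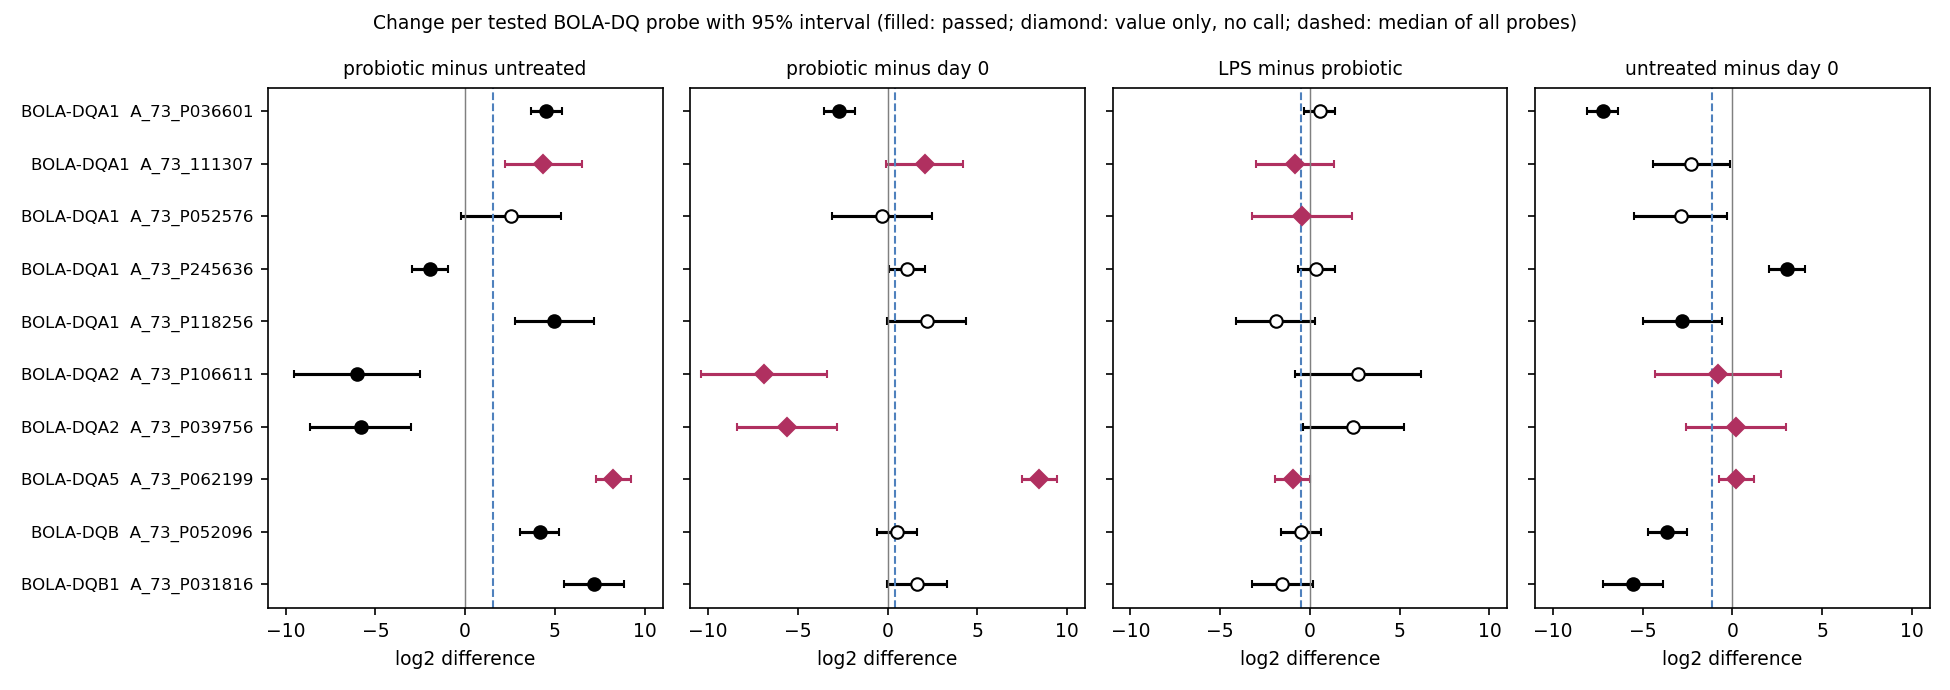
Log2 difference of each of the 10 tested DQ probes in the 4 comparisons, with the 95% interval of the fit; filled circles passed, open circles did not, diamonds are values with no call (BOLA-DQA5, and probes admitted only by a compared group), and the dashed line is the median of all tested probes. BOLA-DQA2 lies left of 0 and BOLA-DQA5 right of 0 in both probiotic comparisons, and no probe with a call passed in the LPS comparison.

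Place on the array moved with the signal. The spots lie in rows, numbered up to 532, and brightness ran in bands along them. Within 10 rows of the bright BOLA-DQA5 spot (row 495), 54.4% of probes were well above background on LPS and 59.8% on probiotic arrays, against 18.8% on untreated and 36.4% on day 0 arrays. Around the dim BOLA-DQA5 spot (row 107) the shares were 28% on LPS and 23.3% on probiotic arrays, against 13.7% on untreated and 17.7% on day 0 arrays. Around the BOLA-DQA2 probe A_73_P106611 (row 145) they were 21.3%, 15.4%, 17.2% and 14.7% in the same order of groups.

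Neighbouring spots moved the same way as several DQ probes did. Of the 957 tested probes within 10 rows of the bright BOLA-DQA5 spot, 61.0% passed as higher on probiotic than on untreated arrays, with a median change of 2.16, and 0.836% passed as higher than on day 0 arrays, with a median of 0.32. Around BOLA-DQB1 probe A_73_P031816 (row 4) the median change from untreated was 2.58, and around BOLA-DQA1 probe A_73_P245636 (row 380), which fell, it was -1.30. Around the 2 BOLA-DQA2 probes it was 0.90 and 1.02, opposite in sign to their own change, and against day 0 it was -0.14 and -0.10, the same sign as their own. What part the place on the array had in the DQ results was not tested beyond the fit with each row centred on its own median. That fit turned the difference of BOLA-DQA1 probe A_73_P245636 from untreated to 0.91 and left BOLA-DQA2 probe A_73_P106611 short of passing (adjusted p = 0.0529).

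**Figure D4:**
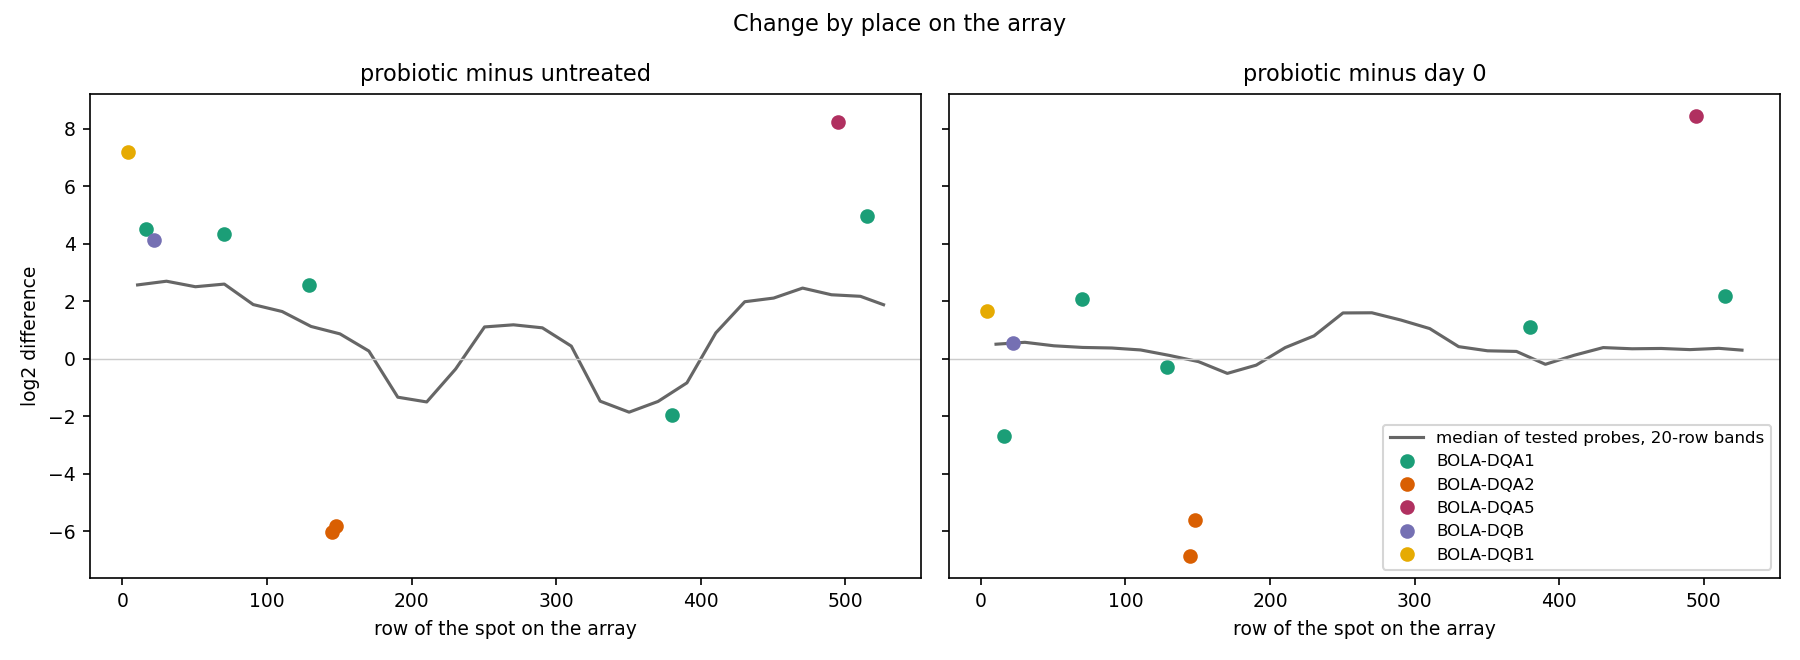
Log2 difference of the tested DQ probes against the row of their spot on the array (numbered up to 532), for probiotic minus untreated (left) and probiotic minus day 0 (right); the line is the median of all tested probes in bands of 20 rows. The line runs between -1.86 and 2.69 on the left and between -0.51 and 1.60 on the right, BOLA-DQA5 lies above it in both panels, and BOLA-DQA2 lies below it in both.

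The DQ probes did not follow 1 course over the 16 arrays. Pearson correlations of scaled log2 values between tested DQ probes ran from -0.87 to 0.99 over 45 pairs, and those of BOLA-DQA5 with the other 9 ran from -0.78 to 0.66. BOLA-DQB and BOLA-DQB1 had 0.95. These are descriptions over arrays that share 4 pools.

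Of 10104 tested probes with a name outside the DQ genes, 13 correlated with BOLA-DQA5 above 0.9. The 6 highest were RADIL at 0.949, FAM209A at 0.948, DDR1, a collagen receptor kinase, at 0.934, GRO1, a neutrophil-attracting chemokine, at 0.933, DAGLA at 0.930 and PIP4K2C, a lipid kinase, at 0.927. GRO1 had 153 to 2847 units on LPS and 450 to 618 on probiotic arrays, against -31 to 17 on untreated and -10 to 9 on day 0 arrays. RADIL had 50.3 to 181 units on LPS and 169 to 210 on probiotic arrays, and was dim on all 8 others.

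The probes most like BOLA-DQA2 (A_73_P106611) included NUMA1 at 0.984 and EMC9 at 0.983, and 73 exceeded 0.9. The spots of NUMA1 and EMC9 lay in rows 123 and 122, near the BOLA-DQA2 spots in rows 145 and 148. For BOLA-DQA1 probe A_73_P118256, 886 probes exceeded 0.9, led by NMRAL1 (0.988), CHMP4B (0.979) and STAMBPL1 (0.975). BOLA-DQB had 1906, led by ZGPAT, VAMP3 and SLC25A3 (0.993, 0.992 and 0.989), and BOLA-DQB1 had 2422, led by RPS4Y1, MRPS15 and TBRG1 (0.996, 0.995 and 0.994).

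Another 4 probes are annotated as DQ but do not carry a BOLA-DQ symbol. LA-DQB probe A_73_P107936, in the same row 4 as BOLA-DQB1, had 10732, 9310, 9303 and 1296 units on LPS and 9349, 9262, 8645 and 7911 on probiotic arrays. It had 30, 46, 28 and 40 units on untreated arrays and 1534, 1523, 1374 and 146 on day 0 arrays. It was at least 38.4-fold higher on probiotic than on untreated arrays (adjusted p = 5.51e-08). It differed by 0.88 ± 0.54 from day 0 (adjusted p = 0.430), and untreated arrays were at least 20.8-fold below day 0 arrays.

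LOC100848815, which the RefSeq table also calls BoLA-DQA1, has 1 probe, A_73_P062201, that matches BOLA-DQA1 probe A_73_P245636 at 53 of 59 shared bases and BOLA-DQA2 probe A_73_P039756 at 38 of 45. It had 1699, 3221, 4115 and 309 units on LPS and 5804, 4972, 6043 and 143 on probiotic arrays, against 140, 231, 192 and 495 on untreated and 535, 49, 25 and 20 on day 0 arrays. The groups overlapped through probiotic replicate 4, and the differences from untreated (2.05 ± 0.94, adjusted p = 0.0636) and from day 0 (2.69 ± 0.94, adjusted p = 0.102) did not pass. The remaining pair, a second LA-DQB probe and a DQB probe with no symbol, was not tested.

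The other genes of the class II pathway were taken as a list of 30, of which 28 are on the array and 21 were measured. Each gene, here and in the marker lists below, was read by its tested probe with the highest mean scaled value over all 16 arrays. The shares and medians over all tested probes were not limited in this way, so the 2 are not fully alike. On probiotic against untreated arrays 17 rose and 1 fell, where 50% of all tested probes passed as higher and 17.5% as lower. The 17 include RFX5, RFXANK, NFYB and BOLA-DOB, and the 1 is BOLA-DYB. These came into the fit only by being bright on all probiotic arrays, as did NFYC, which did not pass. Their place in the count therefore supports nothing. The list's median change was 4.23, the value of RFX5 itself, against 1.57 over all tested probes. It thus rests on a probe admitted only by the probiotic group and supports nothing either. The counts and medians of other scalings below also cover all 21 genes. CTSS, the cathepsin that cuts the invariant chain, rose by 7.13 ± 0.61, BOLA-DRB3, the main DR beta chain, by 6.64 ± 0.46, CTSB by 6.10 ± 0.82, CTSD by 5.86 ± 0.43 and BOLA-DRA, the DR alpha chain, by 5.71 ± 1.20 (adjusted p from 1.13e-08 to 8.04e-04). LGMN, an endopeptidase of the same compartment, was at least 31.8-fold higher (adjusted p = 1.60e-05). BOLA-DYB, a class II gene of ruminants, had a fitted change of -1.07 ± 0.42, for which no call is made. With the detrended signal, scaling to the median, normexp and centred rows, 9, 19, 14 and 16 passed as higher and 0 as lower. With cyclic loess the list's median was -0.21, with 2 higher and 6 lower.

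On probiotic against day 0 arrays 0 of the 21 passed (median 0.31), where 8.01% of all tested probes did. On LPS against probiotic arrays again 0 passed (median -0.67), where 1.7% of all tested probes did. Scaling to the median gave 8 higher against day 0, and the detrended signal 18. On untreated against day 0 arrays 15 fell and 1 rose, where 41.8% of all tested probes passed as lower and 14.2% as higher. The list's median was -3.71, against -1.14 over all tested probes. BOLA-DRB3 and BOLA-DRA fell, with changes of -6.24 ± 0.46 and -5.68 ± 1.20 (adjusted p = 2.57e-08 and 0.00102). With the detrended signal that median was 0.28 and with cyclic loess 0.18.

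Summed net signals of blood cell markers also differed between the groups, but they are not scaled for the brightness of the arrays. The 99th percentile of net signal was 8174 to 15416 units on probiotic, 976 to 1637 on untreated and 599 to 3453 on day 0 arrays. The summed net signal of 7 measured B cell markers was 8687 to 27069 on LPS and 23428 to 31183 on probiotic arrays, against 3076 to 9610 on untreated and 3103 to 6877 on day 0 arrays. For 5 monocyte markers it was 1973 to 33316 on LPS and 31617 to 36312 on probiotic arrays, against 533 to 1121 on untreated and 1701 to 9322 on day 0 arrays. Of the B cell list 5 rose and 2 fell on probiotic against untreated arrays, where 50% of all tested probes passed as higher and 17.5% as lower. Against day 0 arrays 0 rose and 1 fell, where 3.5% passed as higher and 4.51% as lower. The 5 include BANK1, which came into the fit only by being bright on all probiotic arrays. Of the monocyte list 3 rose and 2 fell against untreated, and 0 rose and 1 fell against day 0, beside the same shares.

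The 10 T cell, 7 neutrophil, 4 erythroid and 3 platelet markers measured were also brighter in unscaled sum on every probiotic array than on every untreated or day 0 array. On probiotic against untreated arrays 6 T cell, 5 neutrophil, 2 erythroid and 2 platelet markers rose, and 1 T cell and 1 neutrophil marker fell, where 50% of all tested probes passed as higher and 17.5% as lower. The marker counts were not cleared of probes that came into the fit only through a compared group. Against day 0, 1 platelet marker rose, and 0 T cell, neutrophil or erythroid markers passed. Of all tested probes, 3.5% passed as higher there and 4.51% as lower. Neutrophil sums were 66949 to 84703 on probiotic arrays, against 892 to 1883 on untreated and 2515 to 22095 on day 0 arrays. In pooled blood RNA, more cells of a type and more RNA per cell cannot be told apart. The part of the cell mix in the DQ values was not tested.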

How the data were processed

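RNA of pooled cow blood was measured on 16 single-colour (Cy3) Agilent bovine arrays, 4 per group. Spot intensities were extracted and background-subtracted by Agilent Feature Extraction 10.10.1.1, per the submitters' processing notes and as deposited. On 4 arrays (day 0 replicates 2, 3 and 4 and LPS replicate 4) the deposited processed signal was also detrended by the software, by factors that span orders of magnitude. The signal before that step was therefore rebuilt as the larger of the net signal and the array's lowest significant net signal, which equals the deposited processed signal on the other 12 arrays within 0.1%. The authors' own table holds log2-scale values averaged per group, as deposited, with the centring not given in the sources used here.

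Each array was divided by the 75th percentile of its non-control probes and put on the log2 scale. The 12216 probes well above background on all 4 arrays of at least 1 group were fitted in 1 limma model (limma 3.58.1, R 4.3.3) over all 16 arrays, with p-values adjusted by Benjamini-Hochberg over all of them. A probe passed at an adjusted p under 0.05 and a change of at least 2-fold. The script was tested on simulated data. Spots marked as outliers and 1417 control spots were left out. Alternatives were the detrended signal, scaling to the median, quantile, cyclic loess, normexp with quantile (on median signals, the mean signal not being used here), centred rows, no filter, only the groups compared, a replicate block, leaving out each array, and the authors' averages.

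All DQ probes were named. The members and lists, and the genes picked for the correlations (the highest over the 16 arrays, by Pearson's r), were chosen with earlier results of these data known. Probes took current names through RefSeq accessions (26834), current symbols (6524) or older symbols (131), 1387 kept the file's symbol and 8777 had none. Same-numbered arrays did not pair across groups: their deviations correlated between -0.18 and 0.28, and in 2 of 16 pairings over the 4 comparisons the array was most like the one with its own number. Values of some single genes are not reported here.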

Additional observations from a re-analysis of the deposited data

Results flagged for a closer look

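Within the groups of 4 arrays, 1 array stood far apart from the other 3 in 10 of 71 probe and group sets looked at, where chance marks about 1 in 20. Values are scaled log2 signals. On LPS replicate 4, the array with the fewest probes above background in its group, BOLA-DQA1 was low at -1.718 (A_73_111307) and 1.276 (A_73_P118256) and BOLA-DQB1 was low at 4.579 (A_73_P031816). On day 0 replicate 4, the dimmest array of its group, BOLA-DQA1 was low at -0.3938 (A_73_111307) and 1.231 (A_73_P052576) and BOLA-DQB1 was low at 5.924 (A_73_P031816).

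On untreated replicate 2, BOLA-DQB1 was high at 7.395 (A_73_P362616, 7093 units) and BOLA-DQA1 was high at -0.1647 (A_73_P235072, 38 units, not well above background). On untreated replicate 4, BOLA-DQA1 was high at 4.687 (A_73_P118256, 1193 units). On LPS replicate 1, BOLA-DQB1 was low at -3.633 (A_73_P109256, 5 units). Both BOLA-DQA5 probes had no array marked in this way.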

How the results depend on the processing

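The DQ counts here cover all 10 tested probes, with BOLA-DQA5 and the probes admitted only by a compared group, and support nothing about those. Of 324 settings of the called DQ changes, 275 kept the call, 29 no longer passed and 20 reversed, and the cause was not tested. Per change, 8 settings only left out 1 array, beside 9 other fits and the authors' deposited table. The reversals came from that table (10), cyclic loess (6), the detrended signal (3) and centred rows (1), and leaving out an array gave none.

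For probiotic against untreated, all probes that passed numbered 2845 (2142 higher, 703 lower) with the detrended signal, 5719 (1187 and 4532) with cyclic loess, 9117 (8570 and 547) scaled to the median, 7897 (6741 and 1156) with centred rows, 34668 (6529 and 28139) with no filter, where dim probes sit at array floors that differ between groups, and 2411 (159 and 2252) by fold alone in the authors' deposited table. DQ probes numbered 5 (1 and 4) with cyclic loess, the 1 being BOLA-DQA5, 16 with no filter and 1 in the authors' deposited table. Cyclic loess reversed BOLA-DQA1 (-0.12 for A_73_P036601, -0.53 for A_73_P118256) and BOLA-DQB (-2.05), and centred rows reversed BOLA-DQA1 A_73_P245636 (0.91). The authors' deposited table gave -0.23, -0.62 and -0.69 for BOLA-DQA1 A_73_P036601, A_73_111307 and A_73_P118256, 0.15 for BOLA-DQA2 A_73_P106611, -0.16 for BOLA-DQA5 and -0.41 for BOLA-DQB.

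For probiotic against day 0, the counts were 9071 (8637 and 434) with the detrended signal, 5454 (5122 and 332) scaled to the median, 328 (227 and 101) with normexp, 3300 (2928 and 372) with centred rows, 1048 (798 and 250) with quantile, 949 (321 and 628) with cyclic loess, 23845 with no filter and 8421 (7293 and 1128) in the authors' deposited table. Leaving out 1 array gave 606 to 1178, the lowest being 606 without probiotic replicate 2, 609 without probiotic replicate 3 and 630 without day 0 replicate 2. DQ probes numbered 8 with the detrended signal, 8 scaled to the median, 2 with quantile, 2 with normexp and 10 with no filter. The detrended signal reversed BOLA-DQA1 A_73_P036601 (4.16), and the authors' deposited table reversed BOLA-DQA2 (0.70 and 0.67).

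For LPS against probiotic, the counts were 45 with the detrended signal, 82 (78 and 4) with quantile, 38 with normexp, 160 (98 and 62) scaled to the median, 192 (100 and 92) with centred rows, 569 with no filter, and 8221 with 6 DQ probes in the authors' deposited table. For untreated against day 0, they were 3364 (3304 and 60) with the detrended signal, with 2 DQ probes, 4694 (3850 and 844) with cyclic loess, 5827 (2183 and 3644) with normexp, 5548 (1955 and 3593) with centred rows and 9321 (8339 and 982) in the authors' deposited table. There the detrended signal reversed BOLA-DQA1 A_73_P118256 (2.26) and BOLA-DQB (1.38), cyclic loess these (2.16 and 2.19) and BOLA-DQB1 (0.44), and the authors' deposited table the first pair (2.24 and 1.36).

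With the replicate number as a block, 8218, 969, 215 and 6864 probes passed in the comparisons in that order, and 10, 4, 0 and 6 DQ probes. The numbers did not pair the samples, so the block is given only here. Arrays with few probes above background, untreated and day 0 most of all, limit what can be seen of the dim DQ probes.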
